A study of Mus musculus with 24 samples.

Results

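The comparison set out here was between wild-type (WT) macrophages given ACM and WT macrophages given S1P, both for 24 hours. Its members were the 8 libraries of 24 in the series whose labels name these 2 groups, 4 WT ACM (numbered 19 to 22) and 4 WT S1P (25 to 28), and the 10735 genes of 54532 with a level of at least 1 FPKM in at least 4 of those 8. FPKM is a read level divided by the exon length of the gene and by the total of the library, so it can be set side by side between genes. The cells were bone marrow-derived macrophages of C57BL/6 mice, differentiated for 7 days with supernatant of the fibroblast line L929 as their source of growth factor. ACM is medium without serum in which AML12 cells, a mouse hepatocyte line, were kept after palmitate at 800 µM had made them apoptotic. S1P, sphingosine-1-phosphate, was given at 500 nM. Other libraries of the series serve as background: 4 ACM and 4 S1P libraries of macrophages from Trem2-/- mice (KO), and 4 WT untreated libraries. Trem2 is a lipid-sensing receptor of macrophages.

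Several limits of the groups belong with the values. The labels give no animal, pool, culture batch or age, so the p-values reflect only how far these libraries differ within a group, and that spread may be technical. Library numbers run in blocks by treatment, and a batch that follows those blocks cannot be told apart from the treatment. No group had medium from healthy AML12 cells or palmitate alone, and the labels do not say whether the cells given S1P or left untreated had serum. The difference between ACM and S1P therefore holds everything that differed between the media. In bulk RNA, fewer cells of a kind and less RNA per cell cannot be told apart.

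S1P is a lipid signal that cells make from sphingosine and export, and that acts on a family of G protein-coupled receptors, S1pr1 to S1pr5, and is cleared by phosphatases and a lyase. Dying cells release it together with nucleotides, lipids, proteins and nucleic acids, so medium from apoptotic cells is a mixture in which S1P may be 1 of many agents. Macrophages meet such signals when they clear dead hepatocytes in the liver, a task for which they carry complement, scavenger and Fc receptors.

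The libraries were checked first. They held 17.7 to 20.2 M reads in WT ACM and 19.7 to 25.02 M reads in WT S1P, and 10628 to 10721 against 10681 to 10791 genes at FPKM 1 or more. The WT S1P libraries were uneven. On the first principal component, which held 63.4% of the variance of the 8 libraries, WT ACM scored -15.4 to -13.6, whereas WT S1P 25, 26, 27 and 28 scored 1.52, 10.3, 23.8 and 22.3. Read counts of S1P libraries differed from each other by a chi-square of up to 21.2 per degree of freedom, against at most 4.53 between ACM libraries, and no 2 libraries were identical. The S1P libraries 25 and 26 lay nearer to ACM than 27 and 28 did for 3087 of the 4211 genes called below (73.3%). Counts of genes are therefore given with all libraries and, where they changed by over 1.5 times, without libraries 27 and 28. Core macrophage markers were abundant, with 16 markers summing to 10849 to 11514 FPKM in ACM and 9364 to 11082 FPKM in S1P. Singly they differed: in the comparison below, 10 of the 16 were called higher in ACM and 2 lower, at a median of 0.42 log2 units. Over all genes tested, 21.8% were called higher and 17.5% lower. Of 18 hepatocyte markers 17 stayed under FPKM 1 in every library, Alb and Cps1 among them, and their sum was 0.970 to 1.48 FPKM in ACM and 0.827 to 1.38 FPKM in S1P. Fibroblast markers summed to at most 0.162 FPKM. Mitochondrial transcripts took 2.50 ± 0.059% of summed FPKM in ACM and 2.87 ± 0.084% in S1P (SD, n = 4 each), an exact 2-sided permutation p of 0.0286, the smallest that 4 against 4 libraries allow. The most abundant gene, Gm23935, took 9.87 to 14.5% of summed FPKM in ACM and 8.82 to 11.9% in S1P (exact 2-sided permutation p = 0.143). Trem2 itself was read at 88.4, 87.4, 93.4 and 91.1 FPKM in WT ACM and 97.7, 103, 109 and 104 FPKM in WT S1P, against 36.8 to 40.7 FPKM in the 8 KO libraries, where it was still read.

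Across the 10735 genes, 4211 (39.2%) differed between WT ACM and WT S1P at a Benjamini-Hochberg adjusted p under 0.05 in limma, a linear model on log2(FPKM + 1). Of these, 2337 (21.8% of genes tested) were higher in ACM and 1874 (17.5%) were lower. Most differences were small, and 77 of the called genes (0.717%) differed by at least 1 log2 unit, 14 of them higher and 63 lower in ACM. The largest differences therefore lay on the low side of ACM. The values of the 2 groups did not overlap for 4161 genes (38.8%). Rescaling every library to the same summed FPKM (TPM) gave 1617 higher and 2708 lower, and voom on reads recovered from the FPKM gave 1816 higher and 2420 lower, so the balance of higher to lower calls depends on the scaling, while the median difference of all genes moved by at most -0.06 log2 units. Without S1P libraries 27 and 28 the call fell to 2328 genes, 1381 higher and 947 lower in ACM.

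**Figure D1:**
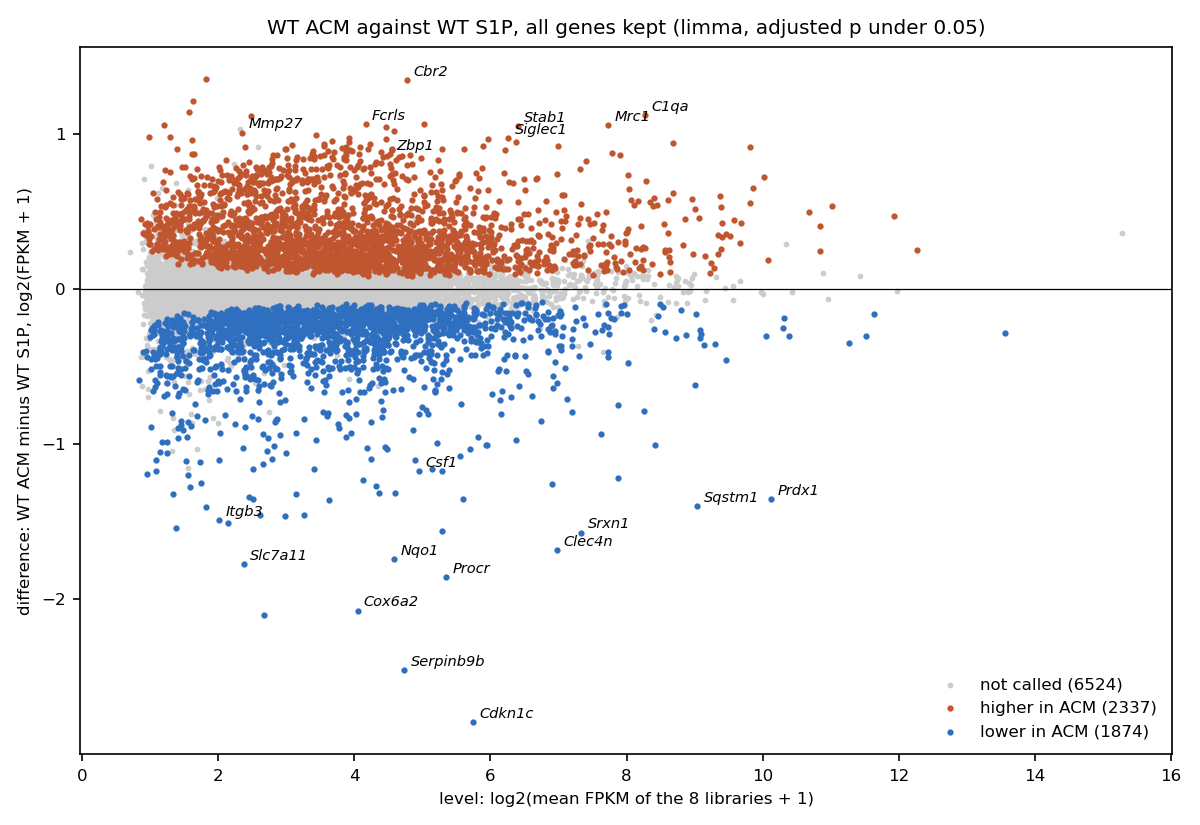
Each point is 1 of the 10735 genes, with its level, the log2 of the mean FPKM of the 8 libraries plus 1, on the x axis and the log2 difference of WT ACM minus WT S1P on the y axis; colours mark genes called higher (2337), lower (1874) or not called. The points farthest from 0 are below it, from Cdkn1c and Serpinb9b to Prdx1 and Sqstm1, and the named genes above it, such as Cbr2 and C1qa, lie closer to 0.

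The gene with the largest difference was Cdkn1c, which encodes the cyclin-dependent kinase inhibitor p57 and lies at chr7:143458339-143461050 (GRCm38, minus strand). Its level was 12.2, 13.1, 11.6 and 12.2 FPKM in ACM, 63.4, 84.4, 115 and 111 FPKM in S1P and 0.999 to 1.61 FPKM in untreated cells. The ACM libraries were even and the S1P libraries spread, and all 4 ACM libraries lay between the other groups without overlap. The difference of ACM minus S1P was -2.79 ± 0.16 SE in log2, limma adjusted p = 0.000139. Serpinb9b, a serpin of clade B, read 7.34, 7.05, 7.14 and 6.24 FPKM in ACM and 28.3, 37.3, 54.6 and 56.95 FPKM in S1P (log2 difference -2.46 ± 0.20 SE, limma adjusted p = 0.000456). Procr, the endothelial protein C receptor, read 15.4, 17.4, 17.9 and 14.5 FPKM in ACM and 42.8, 56.2, 79.4 and 75.5 FPKM in S1P (log2 difference -1.86 ± 0.18 SE, limma adjusted p = 0.000566). Both genes had S1P libraries 25 and 26 below 27 and 28 and no overlap between ACM and S1P. Cox6a2, a subunit of the respiratory chain known from heart and muscle, averaged 5.25 ± 0.979 FPKM in ACM and 25.8 ± 7.19 FPKM in S1P (SD, n = 4 each), and differed by -2.07 ± 0.19 SE in log2. Hid1, a peripheral membrane protein of the Golgi, differed by -1.51 ± 0.16 SE in log2. Against untreated cells, Cdkn1c, Serpinb9b, Procr and Cox6a2 were higher in ACM by 1.51 to 2.52 log2 units and higher in S1P by 3.49 to 5.32, 2 comparisons that share the untreated libraries.

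Other genes that were lower in ACM than in S1P stood close to their untreated level in ACM. Clec4n, which encodes the fungal-mannan receptor Dectin-2, read 57.5, 56.2, 58.8 and 57.7 FPKM in ACM, 133, 171, 232 and 231 FPKM in S1P and 60.8 to 65.2 FPKM in untreated cells. The ACM minus S1P difference was -1.68 ± 0.16 SE in log2 with limma adjusted p = 0.000566, while ACM minus untreated was -0.14 with limma adjusted p = 0.52. Itgb3, integrin beta 3, which pairs with the alpha V chain to bind bridged apoptotic cells, read 1.11, 1.14, 1.06 and 1.07 FPKM in ACM and 3.24, 4.69, 6.33 and 5.77 FPKM in S1P (log2 difference -1.49 ± 0.15 SE, limma adjusted p = 0.000686), against 1.19 to 1.33 FPKM in untreated cells. Pla2g7, a secreted phospholipase that cleaves platelet-activating factor, had S1P values close together, 26.7, 26.9, 27.2 and 28.1 FPKM, against 9.95, 11.8, 10.9 and 10.2 FPKM in ACM (log2 difference -1.27 ± 0.051 SE, limma adjusted p = 1.27e-05).

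Among called genes that averaged FPKM 5 or more in ACM and did not overlap S1P, Cbr2, a carbonyl reductase, was higher in ACM by the most. The next largest differences belonged to C1qa, to cell cycle genes and to several surface receptors of macrophages. Cbr2 read 36.8, 39.6, 39.5 and 34.8 FPKM in ACM, 21.9, 17.9, 9.59 and 10.6 FPKM in S1P and 87.5 to 93.7 FPKM in untreated cells, a difference of 1.35 ± 0.22 SE in log2 between ACM and S1P (limma adjusted p = 0.00319). Mrc1, the mannose receptor CD206, read 286, 290.00, 274 and 278 FPKM in ACM, 191, 159, 103 and 107 FPKM in S1P and 427 to 453 FPKM in untreated cells (log2 difference 1.06 ± 0.18 SE, limma adjusted p = 0.00331). For both, ACM was higher than S1P and lower than untreated cells in every library, so the 3 groups did not overlap. Siglec1, the sialic acid receptor CD169, was highest in ACM of the 3 groups, at 104, 101.4, 102 and 93.4 FPKM in ACM, 67.4, 54.7, 42.4 and 41.1 FPKM in S1P and 74.6 to 79.3 FPKM in untreated cells (log2 difference 0.98 ± 0.14 SE, limma adjusted p = 0.0021). Ak4, a mitochondrial adenylate kinase, differed by 1.00 ± 0.069 SE in log2 (limma adjusted p = 0.000343) with S1P libraries at 7.07, 6.202, 5.84 and 5.93 FPKM, close together, and ACM libraries at 14.4, 13.8, 13.7 and 11.95 FPKM. C1qa, Ccnb2, Stab1, Fcrls and Mmp27 are described with their families below.

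**Figure D2:**
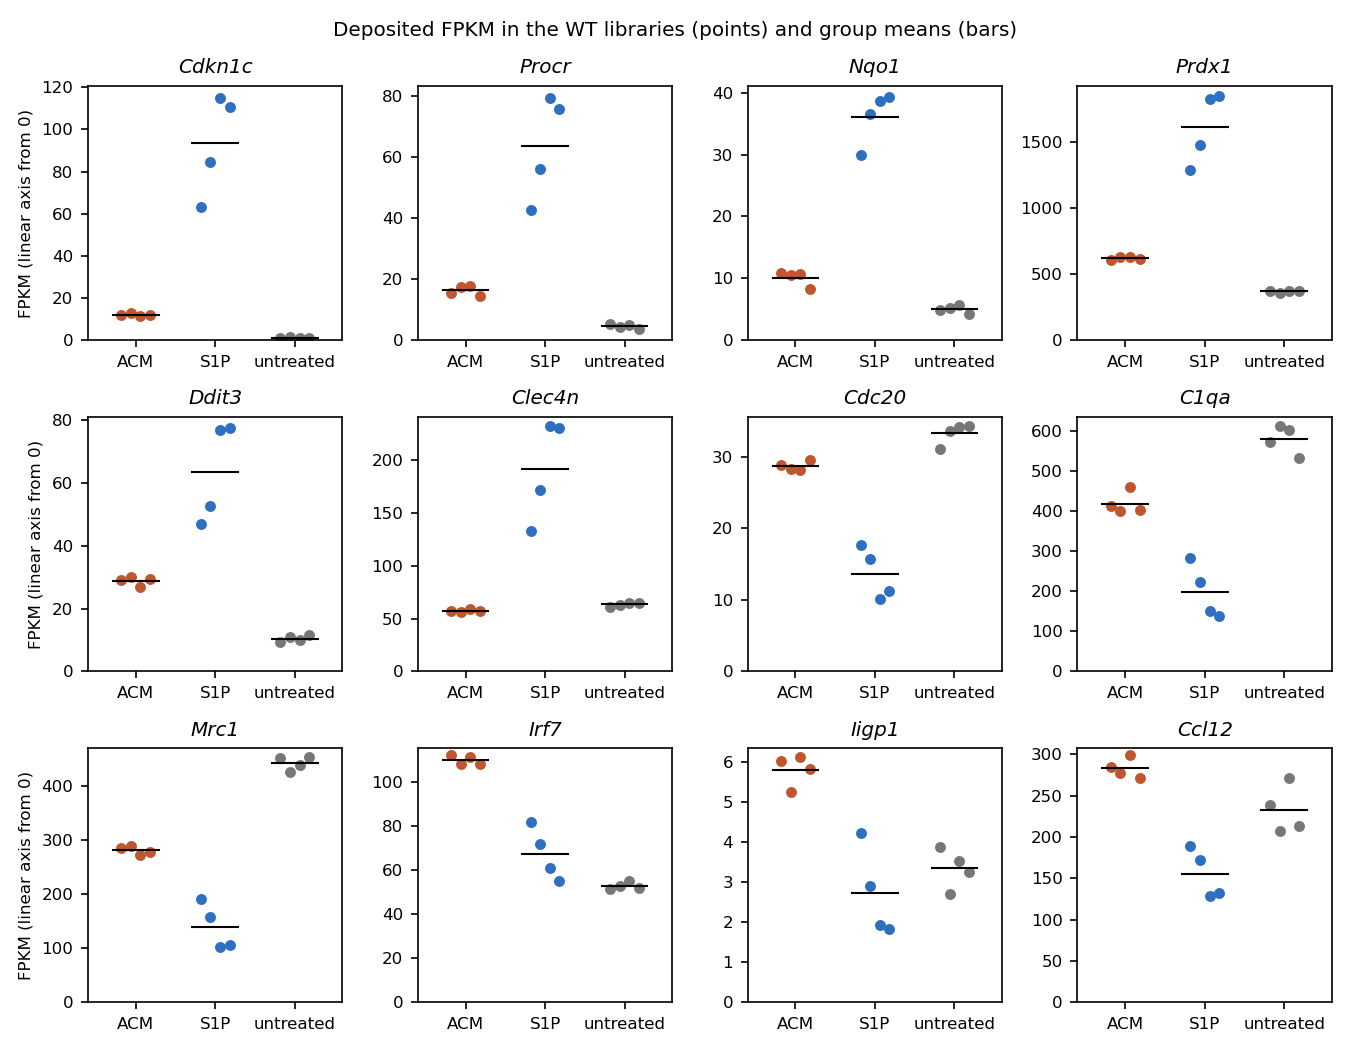
FPKM of 12 genes in the 4 WT ACM, 4 WT S1P and 4 WT untreated libraries, on linear axes from 0, with libraries in number order within a group (points) and group means (bars). Values were even within ACM and spread within S1P, where libraries 27 and 28 lay farther from ACM than 25 for each of the 12 genes; ACM lay between S1P and untreated cells for Cdkn1c, Procr, Nqo1, Prdx1, Ddit3, Cdc20, C1qa and Mrc1, above both for Irf7 and Iigp1, below both for Clec4n, and above S1P but overlapping untreated cells for Ccl12.

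Genes that make glutathione and reduce peroxides were lower in ACM. Glutathione is the cell's main small thiol: Slc7a11 imports cystine for it, Gclm and Gss build it, and transferases and peroxidases use it. Of 17 kept members of the glutathione list, 14 were lower in ACM, 2 (Gpx3 and Gpx1, peroxidases) were higher and 1 was not called, with a median of -0.71 log2 units against -0.00207 over all genes. Slc7a11 read 1.28, 1.30, 1.32 and 1.32 FPKM in ACM, 4.45, 6.40, 8.65 and 8.95 FPKM in S1P and 0.204 to 0.273 FPKM in untreated cells (log2 difference -1.78 ± 0.17 SE, limma adjusted p = 0.000566). Gclm, the regulatory subunit of the first enzyme, read 18.6, 18.9, 18.7 and 17.6 FPKM in ACM, 40.9, 50.3, 68.1 and 71.3 FPKM in S1P and 11.8 to 12.03 FPKM in untreated cells (log2 difference -1.56 ± 0.15 SE, limma adjusted p = 0.000686). Both were higher in ACM than in untreated cells, and each S1P library lay above every ACM library. Gss differed by -1.46 ± 0.14 SE in log2 and Gstm1, a transferase, by -1.25 ± 0.097 SE in log2.

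The peroxiredoxin and thioredoxin system followed in part. Of its 16 kept members 8 were lower in ACM, 3 were higher and 5 were not called. Prdx1, the most abundant of those named, read 611, 629, 635 and 615 FPKM in ACM, 1287, 1482, 1827 and 1851 FPKM in S1P and 363 to 377 FPKM in untreated cells (log2 difference -1.36 ± 0.11 SE, limma adjusted p = 0.000456). Srxn1, which repairs over-oxidised peroxiredoxins, read 76.9, 77.5, 81.1 and 79.3 FPKM in ACM and 171, 209, 299 and 288 FPKM in S1P (log2 difference -1.57 ± 0.16 SE, limma adjusted p = 0.000686). Cat, catalase, differed by -1.22 ± 0.11 SE in log2 and Prdx6 by -1.18 ± 0.09 SE in log2, both with no overlap between ACM and S1P. Of 20 kept genes of NADPH supply and detoxification, 12 were lower in ACM and 0 higher, at a median of -0.26. Nqo1, a quinone reductase, read 10.8, 10.5, 10.7 and 8.24 FPKM in ACM, 29.9, 36.5, 38.7 and 39.3 FPKM in S1P and 4.28 to 5.73 FPKM in untreated cells (log2 difference -1.74 ± 0.10 SE, limma adjusted p = 0.000139). Sqstm1, the autophagy receptor p62, read 271, 274, 289.6 and 288 FPKM in ACM and 497, 661, 988 and 931 FPKM in S1P (log2 difference -1.40 ± 0.19 SE, limma adjusted p = 0.00182), and Ephx1, an epoxide hydrolase, differed by -1.32 ± 0.17 SE in log2. Against untreated cells, the glutathione list had 11 of 17 higher and 0 lower in ACM (background 11.7% higher and 7.26% lower), and 16 of 17 higher and 1 lower in S1P (background 26.4% and 27.2%). These 2 comparisons share the untreated libraries.

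In heme and iron handling, 9 of 16 kept members were lower in ACM and 1, the biliverdin reductase Blvra, was higher. Slc11a1, the phagosomal metal transporter NRAMP1, read 55.1, 56.4, 54.4 and 54.1 FPKM in ACM and 90.4, 104, 124 and 120.3 FPKM in S1P (log2 difference -0.97 ± 0.089 SE, limma adjusted p = 0.000566). Blvrb, the second biliverdin reductase, moved the other way from Blvra, at -0.70 ± 0.07 SE in log2 (limma adjusted p = 0.000686).

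The promoters of Gclm and Prdx1 are shown because the letters TGACNNNGC, the core of the antioxidant response element bound by the factor NRF2 (Nfe2l2), occur in both. The element was searched on both strands in the 300 bases from 250 before to 50 after each gene's start in RefSeq (GRCm38.p6), for 8140 of 10734 gene symbols tested. It occurred in 17.2% of those promoters. The share was 31.6% of 19 in the NADPH list, 23.1% of 13 in the glutathione list and 26.7% of 15 in the peroxiredoxin list. Shares in other lists ran from 0% of 9 LXR and efflux genes to 42.9% of 7 chemokine receptors, so the element was not particular to the redox lists. It occurred in 16.5% of genes called higher in ACM and 19.6% of those called lower, near the share of all genes tested. Capitals mark the element, given in the gene's own direction.
Gclm: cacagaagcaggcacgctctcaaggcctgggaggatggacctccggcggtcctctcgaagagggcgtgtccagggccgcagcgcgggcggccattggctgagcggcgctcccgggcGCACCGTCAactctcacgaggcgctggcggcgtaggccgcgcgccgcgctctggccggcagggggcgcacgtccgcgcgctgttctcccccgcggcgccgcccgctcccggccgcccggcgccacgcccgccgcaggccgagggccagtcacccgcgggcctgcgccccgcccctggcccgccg
Prdx1: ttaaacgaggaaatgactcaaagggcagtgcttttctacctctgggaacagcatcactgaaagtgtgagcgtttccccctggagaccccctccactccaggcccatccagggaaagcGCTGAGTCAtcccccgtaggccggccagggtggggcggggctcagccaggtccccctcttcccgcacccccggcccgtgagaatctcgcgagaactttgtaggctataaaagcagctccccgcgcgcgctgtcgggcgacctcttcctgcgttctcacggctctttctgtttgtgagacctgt
The first lies at chr3:122245307-122245606 (GRCm38.p6, plus strand) and the second at chr4:116685349-116685648 (GRCm38.p6, plus strand), and in both the match was on the opposite strand, 134 and 133 bases before the start. A match is a description of letters and not a measured binding site.

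Genes of the integrated stress response, which follow phosphorylation of the initiation factor eIF2 and include Ddit3 (CHOP), Trib3 and the phosphatase subunit Ppp1r15a, were lower in ACM. Of 18 kept members, 10 were lower, 2 (Eif2ak2 and Ddit4) higher and 6 not called, at a median of -0.36. Ddit3 read 29.1, 29.97, 26.8 and 29.5 FPKM in ACM, 46.9, 52.6, 76.7 and 77.5 FPKM in S1P and 9.23 to 11.4 FPKM in untreated cells (log2 difference -1.08 ± 0.15 SE, limma adjusted p = 0.0021). Trib3 read 20.9, 19.5, 22.8 and 19.1 FPKM in ACM and 35.3, 42.4, 57.4 and 57.8 FPKM in S1P (log2 difference -1.16 ± 0.15 SE, limma adjusted p = 0.00148). For both, every ACM library was above the untreated cells and below every S1P library, with S1P 25 and 26 nearer ACM. Ppp1r15a differed by -1.10 ± 0.16 SE in log2 (limma adjusted p = 0.00213).

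Of 13 kept amino acid transporters 6 were lower in ACM and 0 higher, with Slc3a2, the partner chain of Slc7a11, at 72.1, 73.1, 76.8 and 75.9 FPKM in ACM and 100.7, 124, 167 and 161 FPKM in S1P (log2 difference -0.85 ± 0.14 SE, limma adjusted p = 0.00319). Slc7a11, already counted in the glutathione list, is another of these 6. Enzymes of serine and one-carbon metabolism were split, 4 higher and 4 lower of 11: Psat1 (log2 difference 0.52 ± 0.062 SE) and Mthfd1l (log2 difference 0.49 ± 0.044 SE) were higher in ACM and Phgdh (log2 difference -0.42 ± 0.097 SE), which precedes Psat1 in serine synthesis, was lower. Phgdh in ACM, at 32.4, 29.4, 29.7 and 31.5 FPKM, was the lowest of the 3 groups, against 34.3, 38.8, 46.5 and 47.9 FPKM in S1P and 33.4 to 36.8 FPKM in untreated cells. Of 21 chaperones and unfolded protein response genes of the endoplasmic reticulum, 8 were lower and 4 higher in ACM, with Dnajb9 at -0.80 ± 0.12 SE in log2 and the 4 higher ones, Dnajb11, Pdia6, Pdia3 and Calr, at most 0.18. Of 17 heat shock proteins 7 were lower and 1, Dnajb1, was higher, with Hspa9, a mitochondrial chaperone, at -0.64 ± 0.11 SE in log2.

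The Slc7a11 promoter is shown because it holds the letters TGATGNAA, a form of the C/EBP-ATF element bound by ATF4 and its partners, at 2 places. The element occurred in 2.71% of promoters of genes tested, in 23.5% of 17 of the integrated stress list and in 2 of 10 of the amino acid transporters. Shares in other lists ran from 0% of 25 mitosis genes to 20% of 10 inflammasome genes. It occurred in 3.43% of genes called higher in ACM and 2.95% of those called lower, near the share of all genes tested. The stretch is chr3:50443564-50443863 (GRCm38.p6, minus strand), with capitals on the matches, which begin 66 and 47 bases before the start and lie on opposite strands.
Slc7a11: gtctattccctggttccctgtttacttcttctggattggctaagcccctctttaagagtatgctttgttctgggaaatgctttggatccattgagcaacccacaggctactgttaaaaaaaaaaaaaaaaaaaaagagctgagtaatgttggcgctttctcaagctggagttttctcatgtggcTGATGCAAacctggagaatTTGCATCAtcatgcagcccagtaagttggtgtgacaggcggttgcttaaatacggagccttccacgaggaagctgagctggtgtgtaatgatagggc

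Cell cycle genes were higher in ACM than in S1P. All 30 kept genes of mitosis were higher in ACM, at a median of 0.87 and a range of 0.68 to 1.06, and 31 of 32 kept genes of DNA replication were higher, at a median of 0.66. The exception was Cdc25a, a phosphatase that starts S phase, at 0.19. Cdc20, an activator of the anaphase-promoting complex, read 28.8, 28.3, 28.1 and 29.5 FPKM in ACM, 17.6, 15.6, 10.1 and 11.2 FPKM in S1P and 31.1 to 34.3 FPKM in untreated cells (log2 difference 1.05 ± 0.15 SE, limma adjusted p = 0.002). Ccnb2, cyclin B2, read 42.9, 43.1, 41.7 and 42.01 FPKM in ACM, 29.2, 22.5, 15.3 and 15.1 FPKM in S1P and 53.3 to 62.6 FPKM in untreated cells (log2 difference 1.06 ± 0.18 SE, limma adjusted p = 0.00334). In both genes the ACM libraries lay between untreated cells and S1P without overlap. Plk1, the mitotic kinase, differed by 1.02 ± 0.21 SE in log2, Mcm5, of the replicative helicase, by 0.83 ± 0.17 SE in log2, and Uhrf1, which keeps DNA methylation at replication forks, by 0.85 ± 0.16 SE in log2. Against untreated cells, the mitosis list had 3 of 30 lower and 0 higher in ACM, at a median of -0.32. Over all genes tested, 7.26% were lower in ACM, so the count of lower genes was near that share. In S1P, 30 of 30 were lower, at a median of -1.19 (all genes tested: 27.2% lower). All 30 mitosis genes were also called higher in ACM without S1P libraries 27 and 28, at a median of 0.57.

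Inhibitors of cyclin-dependent kinases did not move as a group. Of 21 kept members of the list of these inhibitors and p53 targets, 7 were lower in ACM, 3 higher and 11 not called. Cdkn2c, which encodes p18, read 28.5, 31.3, 29.5 and 28.5 FPKM in ACM and 20.5, 16.8, 12.4 and 12.8 FPKM in S1P (log2 difference 0.90 ± 0.14 SE, limma adjusted p = 0.00258), the opposite sign to Cdkn1c. The inhibitors Cdkn1a, Cdkn1b, Cdkn2a and Cdkn2b were not called, with differences between -0.02 and 0.24.

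The promoters of Cdc20 and Ccnb2 are shown for the letters TTTGAA, the cell cycle genes homology region (CHR) through which the DREAM complex represses such genes. It occurred in 14.4% of promoters of genes tested and in 20 of 25 of the mitosis list. It occurred in 14.8% of 27 of the replication list, near the background. The letters CCAAT, bound by NF-Y, occurred in 43.2% of genes tested and in 22 of 25 of the mitosis list. They also occurred in 14 of 15 of the cholesterol synthesis list and 16 of 18 of the endoplasmic reticulum list. CCAAT was thus not particular to the mitosis list. Capitals mark the CHR letters.
Cdc20: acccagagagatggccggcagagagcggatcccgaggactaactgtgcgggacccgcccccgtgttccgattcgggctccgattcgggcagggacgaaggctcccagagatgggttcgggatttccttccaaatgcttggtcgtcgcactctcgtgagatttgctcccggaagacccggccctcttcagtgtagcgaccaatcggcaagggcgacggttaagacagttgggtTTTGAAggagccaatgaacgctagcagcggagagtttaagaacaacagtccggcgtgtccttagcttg
Ccnb2: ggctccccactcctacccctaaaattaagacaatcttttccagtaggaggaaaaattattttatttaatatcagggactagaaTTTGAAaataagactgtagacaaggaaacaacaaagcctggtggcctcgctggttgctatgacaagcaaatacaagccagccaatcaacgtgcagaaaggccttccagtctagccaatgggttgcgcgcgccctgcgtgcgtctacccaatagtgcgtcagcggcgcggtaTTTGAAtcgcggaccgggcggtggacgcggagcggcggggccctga
Cdc20 is chr4:118437294-118437593 (GRCm38.p6, minus strand), with the match 18 bases before the start, and Ccnb2 is chr9:70421505-70421804 (GRCm38.p6, minus strand), with 2 matches.

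Interferon-stimulated genes were higher in ACM than in S1P. These genes answer to type I interferon, whose receptor signals through factors that include Stat2 and Irf9, and they block viruses at many steps. Of 29 kept antiviral effectors, 28 were higher in ACM and 1, Ifit1, was not called (0.20), at a median of 0.39. All 12 kept interferon-induced GTPases, which act on pathogen vacuoles, were higher at a median of 0.51, and 8 of 9 kept genes of the p200 family of DNA-binding proteins were higher, the other being Aim2. Among receptors and signal transducers 7 of 9 were higher, and among nucleic acid sensors and regulators 10 of 14, with Trim25 the 1 that was lower. The receptor list had 3 of 9 higher without S1P libraries 27 and 28, and the GTPases 8 of 12.

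Irf7, the factor that amplifies interferon production, read 112, 108, 111 and 108 FPKM in ACM, 81.8, 71.8, 61.02 and 55.2 FPKM in S1P and 51.4 to 55.1 FPKM in untreated cells (log2 difference 0.71 ± 0.10 SE, limma adjusted p = 0.00228). ACM was above both other groups in every library, and S1P ran from well above untreated cells in library 25 to little above them in library 28. Zbp1, a sensor of Z-form nucleic acid, read 28.2, 29.8, 27.6 and 29.8 FPKM in ACM, 18.98, 15.7, 13.8 and 13.2 FPKM in S1P and 15.6 to 16.7 FPKM in untreated cells (log2 difference 0.87 ± 0.096 SE, limma adjusted p = 0.000851). Iigp1, an immunity-related GTPase, read 6.01, 5.25, 6.12 and 5.82 FPKM in ACM and 4.21, 2.89, 1.93 and 1.82 FPKM in S1P (log2 difference 0.92 ± 0.17 SE, limma adjusted p = 0.00453). Mx1, an antiviral GTPase, differed by 0.81 ± 0.15 SE in log2, Ifi44 by 0.70 ± 0.13 SE in log2, Gbp2 by 0.67 ± 0.12 SE in log2 and Stat2 by 0.53 ± 0.093 SE in log2. Ifit3b (log2 difference 0.69 ± 0.17 SE) and Ifi213 (log2 difference 0.65 ± 0.10 SE) have close copies, so their reads may be split with those. ACM and S1P overlapped for Ifit3b, which was not called without S1P libraries 27 and 28 (log2 difference 0.41). Against untreated cells, 27 of 29 antiviral effectors were higher and 0 lower in ACM at a median of 0.52 (all genes tested: 11.7% higher and 7.26% lower). In S1P, 10 were higher and 3 lower at a median of 0.08. Over all genes tested, 26.4% were higher and 27.2% lower in S1P, so the count of 10 was not far from that share.

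The Gbp2 promoter is shown for the letters GAAANNGAA, the core of the interferon-stimulated response element (ISRE). The letters occurred in 8.93% of promoters of genes tested, in all 8 promoters of the GTPase list, in 6 of 8 of the p200 list and in 11 of 22 of the antiviral list.
Gbp2: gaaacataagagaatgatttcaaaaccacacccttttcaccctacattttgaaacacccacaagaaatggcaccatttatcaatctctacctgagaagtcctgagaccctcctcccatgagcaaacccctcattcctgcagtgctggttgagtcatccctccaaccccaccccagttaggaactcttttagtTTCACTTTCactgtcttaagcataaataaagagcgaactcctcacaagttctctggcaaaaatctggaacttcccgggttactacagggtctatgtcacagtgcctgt
The stretch is chr3:142620413-142620712 (GRCm38.p6, plus strand), and the capitals mark a match on the opposite strand that begins 58 bases before the start.

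Antigen presentation was mixed. Of 22 kept genes of MHC class I and peptide loading, 12 were higher in ACM, among them Tapbp, the tapasin of the loading complex (164, 160.02, 159 and 154 FPKM in ACM, 130.2, 118, 109 and 103 FPKM in S1P, log2 difference 0.47 ± 0.067 SE, limma adjusted p = 0.00203). The immunoproteasome subunit Psmb9 differed by 0.38 ± 0.098 SE in log2. The class I chains H2-D1, H2-Q7 and H2-Q4 were lower, by 0.19 to 0.25, and these are near-identical genes whose reads may be split. TPM scaling left 7 of the 22 higher and 4 lower, and leaving out S1P libraries 27 and 28 left 7 higher and 1 lower. Of 12 kept genes of class II and costimulation, 3 were higher and 2 lower, near the shares over all genes tested (21.8% and 17.5%). The 2 lower ones were the ligands Cd86 (9.69, 7.72, 8.51 and 8.52 FPKM in ACM, 14.5, 15.5, 18.4 and 18.02 FPKM in S1P, log2 difference -0.87 ± 0.086 SE, limma adjusted p = 0.000686) and Cd274, which encodes PD-L1 (14.2, 14.96, 14.2 and 13.1 FPKM in ACM, 19.4, 23.7, 31.2 and 30.6 FPKM in S1P, log2 difference -0.82 ± 0.13 SE, limma adjusted p = 0.00303). Icosl, the ligand of the costimulator ICOS, was higher at 0.45 ± 0.085 SE in log2.

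**Figure D3:**
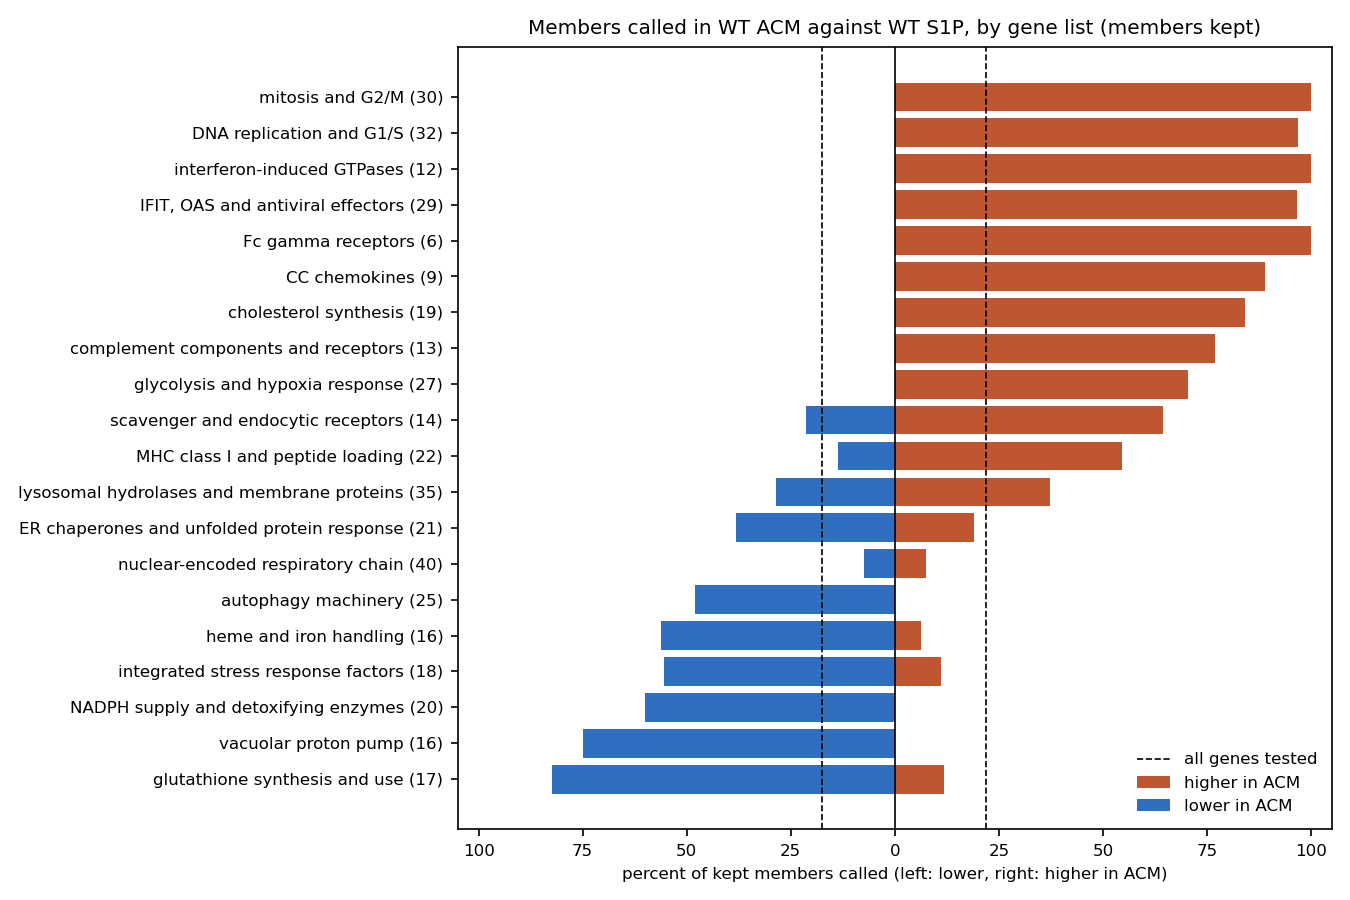
Share of the kept members of 20 gene lists (number kept in brackets) called lower, to the left, and higher, to the right, in WT ACM against WT S1P; dashed lines mark the shares over all genes tested, 17.5% lower and 21.8% higher. Mitosis, replication, interferon, Fc receptor and CC chemokine lists were called almost wholly on the right, glutathione, vacuolar pump and NADPH lists on the left, and the respiratory chain list stayed inside both lines.

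Receptors and opsonins with which macrophages take up particles were mostly higher in ACM. Of 13 kept complement genes 10 were higher and 0 lower, at a median of 0.44. The 3 chains of C1q, which bridge dying cells to phagocytes, lie side by side on chromosome 4. C1qa read 414, 400.03, 460.3 and 402 FPKM in ACM, 284, 223, 152 and 139 FPKM in S1P and 532 to 611 FPKM in untreated cells (log2 difference 1.13 ± 0.20 SE, limma adjusted p = 0.0037). C1qb differed by 0.92 ± 0.16 SE in log2 and C1qc by 0.94 ± 0.17 SE in log2, and neither was called in ACM against untreated cells (limma adjusted p = 0.25 for C1qb and 0.44 for C1qc).

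All 6 kept Fc gamma receptor genes were higher in ACM, at a median of 0.54. Their levels relative to untreated cells differed by member. Fcgr4, an activating receptor, read 44.4, 46.7, 49.1 and 43.7 FPKM in ACM, 36.5, 31.3, 28.5 and 25.3 FPKM in S1P and 19.5 to 23.04 FPKM in untreated cells (log2 difference 0.59 ± 0.097 SE, limma adjusted p = 0.00304), so S1P too lay above untreated cells. Fcgr2b, the inhibitory receptor, read 23.4, 24.1, 24.5 and 25.02 FPKM in ACM, 17.5, 14.1, 11.4 and 10.98 FPKM in S1P and 39.2 to 40.9 FPKM in untreated cells (log2 difference 0.82 ± 0.12 SE, limma adjusted p = 0.0024), so ACM lay below untreated cells. Fcgr1 differed by 0.71 ± 0.12 SE in log2, Fcgr3 by 0.50 ± 0.068 SE in log2, the shared signalling chain Fcer1g by 0.35 ± 0.08 SE in log2 and the recycling receptor Fcgrt by 0.25 ± 0.059 SE in log2. Fcgrt was not called without S1P libraries 27 and 28 (log2 difference 0.16).

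Of 14 kept scavenger and endocytic receptors 9 were higher and 3 lower in ACM. Stab1, stabilin 1, read 114, 111, 113 and 113 FPKM in ACM, 71.4, 61.1, 43.7 and 43.6 FPKM in S1P and 169 to 175 FPKM in untreated cells (log2 difference 1.05 ± 0.15 SE, limma adjusted p = 0.00189), and Fcrls, an Fc receptor-like scavenger receptor, differed by 1.06 ± 0.19 SE in log2. The 3 lower ones, Clec7a (Dectin-1), Scarb2 and Cd36, were at -0.37 to -0.13. Of 19 kept apoptotic cell receptors and bridging ligands 11 were higher and 5 lower, a list that shares Stab1 and the C1q genes with those above. In the MS4A family of membrane proteins, Ms4a6b (log2 difference 0.90 ± 0.22 SE), Ms4a6c (log2 difference 0.71 ± 0.17 SE) and Ms4a4c (log2 difference 0.70 ± 0.18 SE) were higher and Ms4a7 (13.1, 11.3, 13.2 and 13.2 FPKM in ACM, 18.4, 20.4, 22.7 and 21.3 FPKM in S1P, log2 difference -0.66 ± 0.071 SE, limma adjusted p = 0.000832) was lower, with Ms4a14 and Ms4a6d lower too and Ms4a4a not called. In the TREM family Trem2 was lower in ACM, at -0.20 ± 0.041 SE in log2 (limma adjusted p = 0.00583), and 4 of 10 kept members were higher. This count was 1 of the 10 without S1P libraries 27 and 28.

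Lineage regulators were split. Maf, a factor of resident macrophages, read 75.3, 76.7, 74.8 and 75.9 FPKM in ACM, 52.7, 45.7, 31.7 and 31.4 FPKM in S1P and 85.3 to 96.9 FPKM in untreated cells (log2 difference 0.92 ± 0.15 SE, limma adjusted p = 0.00314). Cebpa, a factor of myeloid progenitors, read 8.03, 9.10, 9.64 and 9.17 FPKM in ACM, 14.5, 17.1, 22.1 and 20.1 FPKM in S1P and 7.90 to 9.47 FPKM in untreated cells (log2 difference -0.95 ± 0.11 SE, limma adjusted p = 0.00115), so ACM overlapped untreated cells. Csf2rb, the shared chain of the GM-CSF receptor, differed by -0.74 ± 0.084 SE in log2. Over the list of 19, 10 were lower and 4 higher in ACM. Of 18 kept markers of lipid-associated macrophages 9 were lower and 3 higher (1 higher without S1P libraries 27 and 28), with Mmp12, macrophage elastase, at 220.2, 229, 220.1 and 219 FPKM in ACM, 333, 365, 412 and 429.98 FPKM in S1P and 229 to 248 FPKM in untreated cells (log2 difference -0.78 ± 0.074 SE, limma adjusted p = 0.000566). Markers of other myeloid cells differed too. Monocyte markers summed to 99.02 to 108.7 FPKM in ACM and 65.8 to 95.6 FPKM in S1P with Ly6c1 at 0 in ACM, and 5 of 6 kept members were higher and 0 lower. Dendritic cell markers summed to 580 to 634 FPKM in ACM, 353 to 488 FPKM in S1P and 414 to 447 FPKM in untreated cells. Nearly all of that sum was Bst2, an antiviral protein that interferon also induces, at 604 FPKM in ACM and 424 FPKM in S1P on average, while 8 of the 10 markers, among them Flt3, Zbtb46 and Xcr1, stayed under FPKM 1. Osteoclast markers summed to 44.8 to 47.97 FPKM in ACM and 55.2 to 71.5 FPKM in S1P with Calcr at 0 in both, but 7 kept members went both ways, with Mmp9 and Nfatc1 higher in ACM, Atp6v0d2, Itgb3 and Ctsk lower and 2 not called. Their part in these results was not tested.

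Chemokines that draw monocytes were higher in ACM than in S1P. Of 9 kept CC chemokines 8 were higher, the exception being Ccl8 (0.02), at a median of 0.55. Ccl12 read 284, 277, 299 and 271 FPKM in ACM, 189, 173, 129 and 132 FPKM in S1P and 207 to 271 FPKM in untreated cells (log2 difference 0.88 ± 0.12 SE, limma adjusted p = 0.00166). Ccl2 read 1058, 1049, 1105 and 1060.4 FPKM in ACM, 852, 769, 660.1 and 647 FPKM in S1P and 931 to 1068 FPKM in untreated cells (log2 difference 0.55 ± 0.083 SE, limma adjusted p = 0.00241), so ACM overlapped untreated cells while S1P lay below both. Ccl6 differed by 0.72 ± 0.12 SE in log2 and Ccl7 by 0.60 ± 0.078 SE in log2. Cxcl10, which interferon induces, differed by 0.85 ± 0.17 SE in log2 with 17.3, 18.9, 18.3 and 15.1 FPKM in ACM and 13.3, 9.88, 7.70 and 6.78 FPKM in S1P. Among 8 kept chemokine receptors 4 were higher, and Cxcr4, the receptor of Cxcl12, was the 1 that was lower. Cxcr4 read 5.39, 5.98, 6.06 and 4.77 FPKM in ACM, 11.8, 13.2, 15.5 and 14.1 FPKM in S1P and 8.71 to 9.61 FPKM in untreated cells (log2 difference -1.16 ± 0.089 SE, limma adjusted p = 0.000456), so the treated groups lay on opposite sides of untreated cells.

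Of 11 kept cytokines 7 were higher in ACM and 2, Csf1 and Osm, were lower. Csf1, the macrophage growth factor, read 16.1, 17.6, 17.4 and 16.8 FPKM in ACM, 22.4, 30.9, 61.04 and 56.8 FPKM in S1P and 8.94 to 9.88 FPKM in untreated cells (log2 difference -1.17 ± 0.28 SE, limma adjusted p = 0.0105), and S1P library 25 was closer to ACM than to S1P library 27. Without S1P libraries 27 and 28, 4 of 11 cytokines were higher and 1 lower. Among 16 Toll-like receptors and adaptors 8 were higher and 3 lower, with the RNA sensors Tlr7 at 0.74 ± 0.15 SE in log2 and Tlr8 at 0.65 ± 0.14 SE in log2. Matrix metalloproteinases were split, 5 higher and 2 lower of 9, with Mmp27 higher at 5.71, 5.62, 5.77 and 6.12 FPKM in ACM and 3.35, 2.48, 1.74 and 2.14 FPKM in S1P (log2 difference 1.01 ± 0.12 SE, limma adjusted p = 0.00116). Of 12 kept coagulation and plasminogen genes 4 were higher and 5 lower, Procr by the most. Leukotriene and prostaglandin enzymes had 5 higher and 2 lower of 12, with Alox5, 5-lipoxygenase, higher at 0.68 ± 0.20 SE in log2, a call lost without any 1 of ACM libraries 19, 20 and 21 and S1P libraries 27 and 28. Clade B serpins, inhibitors of proteases inside cells, had 4 of 6 lower and 0 higher, and 2 of 6 lower without S1P libraries 27 and 28.

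Lipid genes divided by task. Of 19 kept genes of cholesterol synthesis 16 were higher in ACM and 0 lower, at a median of 0.35. Acat2, an acetyl-CoA acetyltransferase that acts at the start of the pathway, read 11.7, 11.3, 12.4 and 12.7 FPKM in ACM, 8.39, 7.01, 6.88 and 5.68 FPKM in S1P and 21.1 to 23.8 FPKM in untreated cells (log2 difference 0.71 ± 0.091 SE, limma adjusted p = 0.00148), so both treated groups were below untreated cells and S1P was the lower. Idi1, which isomerises the isoprenoid building block, differed by 0.64 ± 0.092 SE in log2. Against untreated cells the list had 17 of 19 lower in ACM at a median of -0.41, and 19 of 19 lower in S1P at a median of -0.71. Over all genes tested, 7.26% were lower in ACM and 27.2% in S1P. Mylip, which sends the LDL receptor to degradation, read 9.64, 11.3, 11.1 and 11.3 FPKM in ACM, 16.9, 20.5, 21.3 and 20.2 FPKM in S1P and 13.5 to 14.7 FPKM in untreated cells (log2 difference -0.81 ± 0.076 SE, limma adjusted p = 0.000566).

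Of 13 kept genes of fatty acid synthesis 10 were higher in ACM and 2 lower, with Fads2, a desaturase, at 0.73 ± 0.12 SE in log2 and Fasn, fatty acid synthase, at 0.53 ± 0.063 SE in log2. Of 19 kept oxidation and PPAR target genes 6 were lower and 1 higher, with Acot2, a mitochondrial thioesterase, at 6.06, 6.77, 5.45 and 5.21 FPKM in ACM and 12.98, 14.7, 19.6 and 19.96 FPKM in S1P (log2 difference -1.36 ± 0.13 SE, limma adjusted p = 0.000686). Of 11 kept lipid droplet and lipolysis genes 6 were lower and 0 higher. Plin2, the main droplet coat protein of macrophages, read 409, 398, 401 and 399 FPKM in ACM, 549.97, 606, 664 and 661 FPKM in S1P and 161 to 167 FPKM in untreated cells (log2 difference -0.62 ± 0.059 SE, limma adjusted p = 0.000566), so ACM was far above untreated cells and below S1P. Without S1P libraries 27 and 28, the oxidation list had 3 lower and 0 higher. LXR receptors and efflux genes had 3 higher and 3 lower of 10, and 0 higher and 2 lower without those libraries. Ch25h, which makes the LXR ligand 25-hydroxycholesterol, was higher at 0.49 ± 0.14 SE in log2, a call lost without any 1 of ACM library 20 and S1P libraries 27 and 28.

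Of 15 listed genes that sense, make or clear S1P itself, 7 were kept, of which 2 were higher in ACM, 3 lower and 2 not called. The shares over all genes tested were 21.8% higher and 17.5% lower. S1pr1, the one S1P receptor here above 20 FPKM, read 37.3, 39.02, 36.96 and 39.6 FPKM in ACM, 33.2, 29.9, 27.5 and 27.6 FPKM in S1P and 30.7 to 36.3 FPKM in untreated cells (log2 difference 0.37 ± 0.06 SE, limma adjusted p = 0.00314). S1pr2 was not called (-0.10). Sphk2, a kinase that makes S1P, was lower in ACM at -0.40 ± 0.091 SE in log2, the phosphatase Sgpp1 was higher at 0.31 ± 0.068 SE in log2, and the lyase Sgpl1, which degrades S1P, was lower at -0.09 ± 0.03 SE in log2 with limma adjusted p = 0.0452, a call lost when any 1 library other than S1P library 25 was left out, and without S1P libraries 27 and 28 together. The lipid phosphatase Plpp2 was not called (0.02). A related phosphatase, Plpp3, read 0.987, 0.498, 0.919 and 0.964 FPKM in ACM and 1.66, 1.99, 2.81 and 3.47 FPKM in S1P, and it passed the filter through the S1P libraries alone, so its difference of -0.90 log2 units, the third of the lower calls, is given as a description. With S1P libraries 27 and 28 left out, 6 members were tested, 2 higher and 1 lower.

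Genes of acidic organelles were lower in ACM or not called, apart from the lysosomal enzymes. Of 16 kept subunits of the vacuolar proton pump 12 were lower and 0 higher, at a median of -0.18. Atp6v0d2, a subunit known from osteoclasts and phagocytes, read 10.6, 10.6, 10.02 and 10.8 FPKM in ACM, 18.6, 23.6, 36.6 and 36.2 FPKM in S1P and 9.80 to 11.4 FPKM in untreated cells (log2 difference -1.32 ± 0.19 SE, limma adjusted p = 0.00226). ACM overlapped untreated cells there, and S1P library 25 was nearest to ACM. Of 25 kept autophagy genes 12 were lower and 0 higher, with Gabarapl1, of the LC3 family, at 23.3, 24.3, 24.01 and 21.9 FPKM in ACM and 34.7, 37.7, 48.6 and 43.7 FPKM in S1P (log2 difference -0.78 ± 0.094 SE, limma adjusted p = 0.00115). The 12 include Sqstm1, which had the largest fall of the list and was already counted in the NADPH list. Lysosomal hydrolases and membrane proteins were split, 13 higher and 10 lower of 35, and TPM scaling turned this to 10 higher and 17 lower.

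Proteasome subunits had 8 of 31 lower and 0 higher, at a median of -0.05, with 17 lower under TPM scaling and 3 lower without S1P libraries 27 and 28. The shares over all genes tested were 17.5% lower and 21.8% higher. Nuclear-encoded respiratory chain subunits had 3 higher and 3 lower of 40, under the background share in both directions. The lowest member of that list was at -0.38. Cox6a2, a subunit described above with a larger fall, was not in the list. Transcripts of the mitochondrial genome had 10 of 15 lower and 0 higher, beside the lower mitochondrial share of the ACM libraries given above, whose part was not tested. mt-Nd4l, a short subunit gene of complex I, had the largest of these differences, at -0.42 ± 0.11 SE in log2, with a call lost without S1P libraries 25 and 26. Glycolysis and hypoxia genes had 19 of 27 higher in ACM and 0 lower, at a median of 0.34. Bnip3, a mitophagy receptor induced by low oxygen, read 36.8, 35.1, 39.3 and 31.9 FPKM in ACM, 22.9, 20.8, 20.2 and 21.1 FPKM in S1P and 34.03 to 38.7 FPKM in untreated cells (log2 difference 0.72 ± 0.064 SE, limma adjusted p = 0.000566), and Ankrd37, another hypoxia target, differed by 0.93 ± 0.11 SE in log2. In both genes ACM overlapped untreated cells and S1P lay below, and the S1P libraries were close together. Against untreated cells the list had 7 of 27 higher and 0 lower in ACM, and 4 higher and 16 lower in S1P. Over all genes tested, 11.7% were higher and 7.26% lower in ACM, and 26.4% higher and 27.2% lower in S1P.

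**Figure D4:**
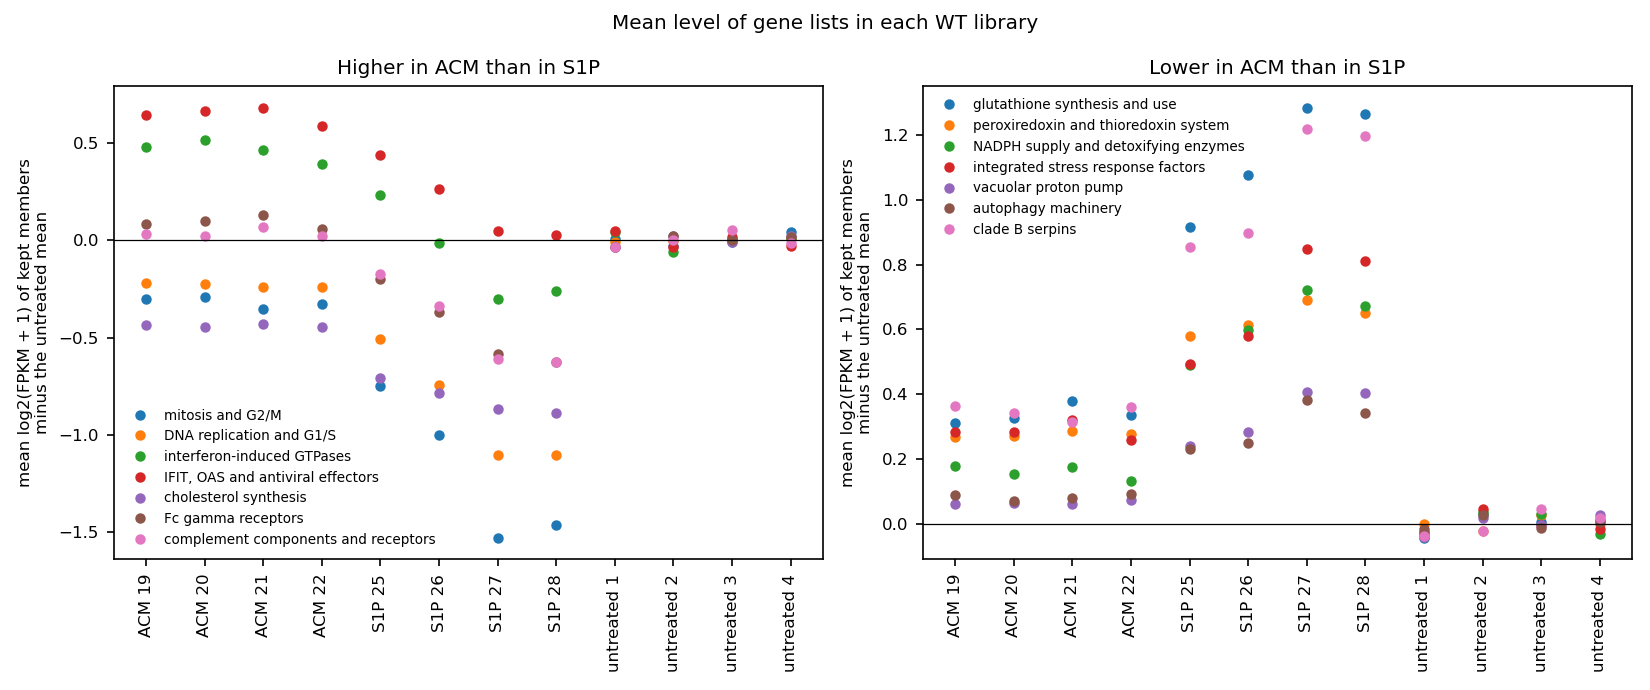
Mean log2(FPKM + 1) of the kept members of 14 gene lists in each WT library, minus the mean of the 4 WT untreated libraries, for lists higher (left panel) and lower (right panel) in ACM than in S1P; each point is 1 library. ACM points were level within each list, whereas S1P libraries 27 and 28 lay farther from ACM than library 25 in all 14 lists; the interferon lists lay above 0 in ACM, and the cell cycle and cholesterol lists lay below 0 in both treated groups.

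Over all genes, WT ACM against untreated cells called 2040 genes (19%) and WT S1P against untreated cells called 5752 (53.6%), in a fit of the 12 WT libraries in which both share the untreated group. The S1P values thus lay farther from untreated cells by the count of genes, and the lists above fell into recurring patterns. By list median, the glutathione list stood 0.34 log2 units above untreated cells in ACM and 1.04 above in S1P, and the lipid droplet list 0.14 above in ACM and 0.44 above in S1P. The replication list stood at -0.24 in ACM and -0.89 in S1P. The GTPases stood at 0.47 in ACM and -0.09 in S1P. By the mean of its members, the GTPase list stood at 0.23, -0.02, -0.30 and -0.26 in S1P libraries 25 to 28. The S1P libraries thus lay on both sides of untreated cells.

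The same contrast was read in macrophages of Trem2 KO mice, whose libraries the comparison above does not use. KO ACM and KO S1P differed for 26 of 10700 genes tested (0.243%), 20 higher (0.187%) and 6 lower (0.0561%) in ACM, with 4108 of the genes called in WT among those tested. Of these 4108, 6 were called in KO in the same direction and 7 in the opposite direction. The difference of differences, WT minus KO, was called for 3427 of 11159 genes (30.7%), 1952 higher and 1475 lower in WT. It was called for 3058 of the 4211 genes called in WT. Those genes were chosen by the WT difference that this value contains, so the choice itself raises their count.

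Of the 102 genes given with a WT difference and its SE, 98 were tested in KO. Cdkn1c, Cox6a2, Slc7a11 and Hid1 were not, because too few KO libraries reached FPKM 1. Of the 98, 1 was called in KO. This was mt-Nd4l, which was higher in KO ACM than in KO S1P by 0.80 log2 units (limma adjusted p = 0.0157), the opposite direction from WT. Prdx1 read 611 to 635 FPKM in WT ACM and 1287 to 1851 FPKM in WT S1P, against 416 to 436 FPKM in KO ACM and 420.1 to 443 FPKM in KO S1P. Procr read 4.70 to 5.73 FPKM in KO ACM and 5.19 to 5.56 FPKM in KO S1P, and Irf7 50.5 to 60.1 FPKM in KO ACM and 54.7 to 59.0 FPKM in KO S1P. Clec4n was high in both KO groups, 139 to 158 FPKM in ACM and 139 to 152 FPKM in S1P, near the WT S1P level and above WT ACM. C1qa was lower in KO ACM, at 544 to 585 FPKM, than in KO S1P, at 603 to 671 FPKM, without overlap and in the opposite order from WT, although the KO difference of -0.19 ± 0.037 SE in log2 was not called. The KO libraries were uneven too, with a chi-square per degree of freedom of up to 11.2 between ACM libraries and up to 8.61 between S1P libraries. The KO calls ranged from 3 to 71 genes when 1 library was left out.

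**Figure D5:**
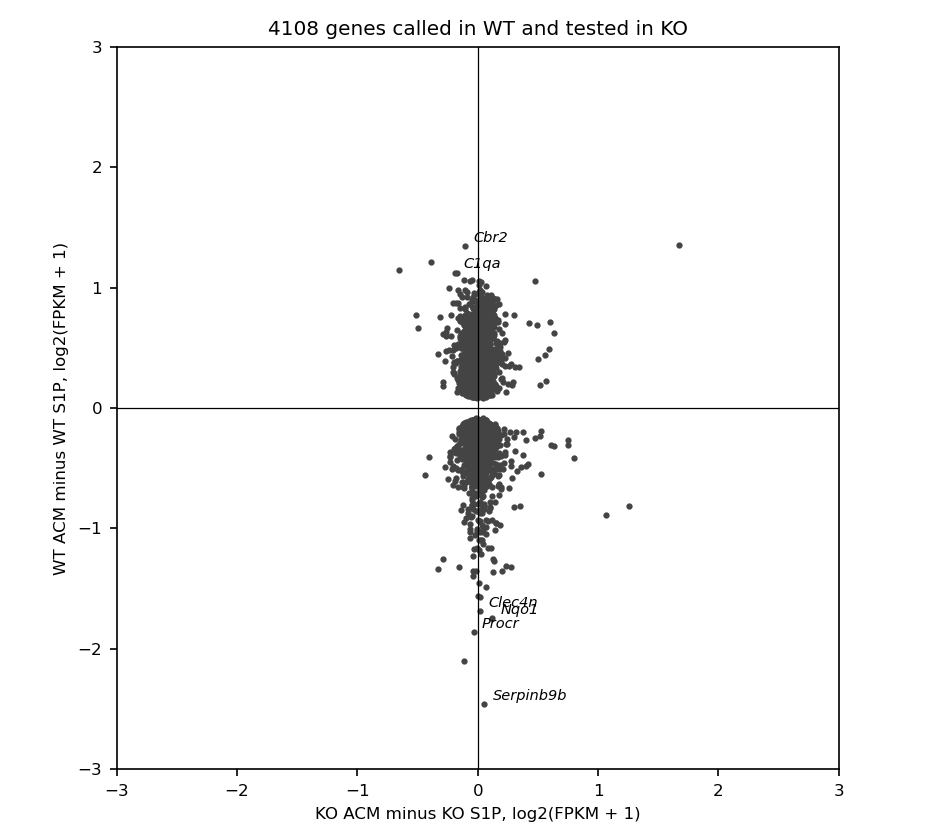
Log2 difference of ACM minus S1P in KO libraries (x axis) against the same difference in WT libraries (y axis) for the 4108 genes called in WT and tested in KO, on equal axes. The points form a vertical band: the median size of the difference was 0.275 in WT and 0.0412 in KO, with 57 genes at 1 log2 unit or more in WT and 3 in KO. The genes were chosen by their WT difference, so a larger size in WT is partly set by that choice.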

How the data were processed

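RNA was sequenced from 24 libraries of bone marrow-derived macrophages, 4 per group, of which 8 (WT ACM and WT S1P) were compared. The values are FPKM per gene as deposited by the authors in 1 table. The tools named in the submitters' processing notes are StringTie, featureCounts, the aligners HISAT2 and STAR, STAR-Fusion, DESeq and edgeR, with the mouse builds GRCm38 and mm10. Their roles, versions and strand settings are not given there. Gene names came from GENCODE M21 by Ensembl ID (54495 of 54532 matched).

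Genes that reached FPKM 1 in 4 or more of the 8 libraries were kept, and limma 3.58.1 (R 4.3.3) was fitted with a mean-variance trend to log2(FPKM + 1), where the pseudocount of 1 understates the change of low genes. A gene was called at a 2-sided p under 0.05 after Benjamini-Hochberg adjustment across the genes kept. WT untreated libraries entered a fit of 12 libraries, KO ACM against KO S1P a fit of 8, and the difference of differences a fit of 16. Errors are SE of log2 differences unless given as SD. Library properties were compared by exact permutation. FPKM times exon length gave whole reads for 96.9% of genes (tolerance 0.05 reads), from which depth and an added limma voom fit were taken.

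Gene lists were described by counts and medians with no set test. Their counts in ACM against S1P are to be read beside the shares over all genes tested, 21.8% higher and 17.5% lower. The members of the comparison and the lists were chosen with earlier results of these data known. Named genes were, by rule, up to 12 per direction with the largest called differences (higher group averaging FPKM 5 or more, no overlap), up to 3 per list, whole small families, the 5 with the smallest interaction p, and Trem2. A few genes that the rule takes are not reported here. Other genes, named as exceptions in small counts, were chosen after their values were seen. Scripts were tested on simulated data. Promoters came from RefSeq tables (GRCm38.p6), and motif matches were counted on both strands with Python 3.11.15. Alternatives covered the pseudocount, filters, scaling, fits, weights and left-out libraries.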

Additional observations from a re-analysis of the deposited data

Results flagged for a closer look

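The difference between ACM and S1P was not the same in both genotypes. Of 11159 genes, 3427 (30.7%) had a called difference of differences, WT minus KO on the log2 scale, in a limma fit of 16 libraries. It was called for all 102 genes given with a WT difference and its SE, which were chosen from the WT difference, so this count says nothing about other genes. A positive value means a higher ACM minus S1P difference in WT than in KO. Among the genes with the largest differences, the value was -2.94 for Cdkn1c, -2.51 for Serpinb9b, -2.14 for Cox6a2, -1.82 for Procr, -1.49 for Hid1, -1.71 for Clec4n, -1.56 for Itgb3, -1.40 for Pla2g7 and -1.49 for Acot2. Among redox and metal genes it was -1.81 for Slc7a11, -1.87 for Nqo1, -1.59 for Srxn1, -1.56 for Gclm, -1.47 for Gss, -1.38 for Gstm1, -1.34 for Prdx1, -1.19 for Prdx6, -1.24 for Cat, -1.36 for Sqstm1, -1.16 for Ephx1, -1.01 for Slc11a1 and -0.65 for Blvrb. Among stress, amino acid and chaperone genes it was -1.28 for Trib3, -1.13 for Ppp1r15a, -1.01 for Ddit3, -0.86 for Slc3a2, 0.45 for Psat1, 0.46 for Mthfd1l, -0.49 for Phgdh, -0.76 for Dnajb9 and -0.65 for Hspa9. In these 3 groups all values were negative except those of Psat1 and Mthfd1l, which were higher in WT ACM than in WT S1P.

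For cell cycle genes it was 1.11 for Ccnb2, 1.03 for Cdc20, 1.01 for Plk1, 0.87 for Mcm5, 0.81 for Uhrf1 and 0.88 for Cdkn2c. For interferon and antigen presentation genes it was 0.55 for Stat2, 1.03 for Zbp1, 0.81 for Irf7, 0.76 for Mx1, 0.78 for Ifi44, 0.65 for Ifit3b, 0.84 for Iigp1, 0.72 for Gbp2, 0.59 for Ifi213, 0.56 for Tapbp, 0.37 for Psmb9, -0.91 for Cd86, -0.92 for Cd274 and 0.50 for Icosl. For complement, scavenger, Fc and related surface genes it was 1.46 for Cbr2, 1.31 for C1qa, 1.05 for C1qb, 1.09 for C1qc, 1.18 for Fcrls, 1.05 for Mrc1, 1.12 for Stab1, 1.14 for Siglec1, 0.92 for Fcgr2b, 0.79 for Fcgr1, 0.67 for Fcgr4, 0.49 for Fcgr3, 0.37 for Fcer1g, 0.28 for Fcgrt, 0.92 for Ms4a6b, 0.75 for Ms4a6c, 0.78 for Ms4a4c, -0.55 for Ms4a7 and -0.18 for Trem2. For regulators, chemokines, cytokines, Toll-like receptors and proteases it was 1.01 for Maf, -0.84 for Cebpa, -0.77 for Csf2rb, -1.14 for Csf1, 1.06 for Ccl12, 0.71 for Ccl6, 0.60 for Ccl7, 0.54 for Ccl2, 0.81 for Cxcl10, -1.24 for Cxcr4, 0.72 for Tlr7, 0.63 for Tlr8, -0.93 for Mmp12 and 0.94 for Mmp27. For lipid and S1P genes it was 0.73 for Acat2, 0.53 for Idi1, -0.76 for Mylip, 0.70 for Fads2, 0.52 for Fasn, -0.65 for Plin2, 0.47 for Ch25h, 0.79 for Alox5, 0.49 for S1pr1, -0.45 for Sphk2, 0.27 for Sgpp1 and -0.13 for Sgpl1. For organelle and hypoxia genes it was 1.23 for Ak4, -1.55 for Atp6v0d2, -0.80 for Gabarapl1, -1.22 for mt-Nd4l, 0.90 for Ankrd37 and 0.87 for Bnip3.

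In 12 of 306 sets of 4 libraries (each of 102 genes in WT ACM, WT S1P and WT untreated), 1 library stood apart from the other 3 by Dixon's test at the 95% level, a rule that chance meets in about 1 in 20 sets. In WT ACM these were Nqo1 at 8.24 FPKM and Mylip at 9.64 FPKM on the low side in libraries 22 and 19, and in library 20 Ms4a7 at 11.3 FPKM on the low side and Mmp12 at 229 FPKM and Ccl7 at 840.5 FPKM on the high side. Ms4a7, Mmp12 and Ccl7 thus came from the same library. In WT untreated cells they were Fcgr2b at 40.9 FPKM, Cd86 at 7.24 FPKM and Cxcr4 at 9.61 FPKM in library 4, Fcgr3 at 263.8 FPKM, Cebpa at 7.90 FPKM and Fads2 at 75.3 FPKM in library 1, and Bnip3 at 38.7 FPKM in library 2. No set of 4 WT S1P libraries met the rule, where the spread lay between libraries 25 and 26 and libraries 27 and 28. No called difference between ACM and S1P among these 12 genes was lost when any 1 library was left out.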

How the results depend on the processing

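Pseudocount, filter, scaling, libraries in the fit, variance prior and library weights were varied, and each library was left out in turn; voom and leaving out S1P libraries in pairs were chosen after seeing the data. The main count of 4211 stayed within 1.5 times under every alternative except without S1P libraries 27 and 28, which gave 2328 called, 1381 higher and 947 lower (2277 of the 4211 called in the same direction). Without S1P libraries 25 and 26 it was 4963, with 3919 of the 4211. Leaving out 1 library gave 3144 to 4790 called, 1812 to 2676 higher and 1332 to 2114 lower. The cause was not tested. In KO, the count of 26 became 10 under TPM scaling, 1 with no filter, and 3 to 71 with 1 library left out. The difference of differences was called for 3013 to 3246 genes with 1 library left out, 2392 under TPM scaling and 2837 with no filter.

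Of called genes, 55.5% were higher in ACM, against 37.4% under TPM scaling, 42.9% with voom and 48.9% with median scaling, which shifted the median of all genes by -0.0645, -0.0499 and -0.0231. Some small lists changed their balance. The lysosomal list had 10 higher under TPM scaling and under quantile normalization and 11 with voom. MHC class II and costimulation had 2 higher with voom. CXC chemokines had 1 higher under TPM scaling, without S1P library 27 and without libraries 27 and 28. S1P receptors and metabolism had 1 lower without S1P library 26, 27 or 28, and without 27 and 28. Leukotriene enzymes had 0 higher with no filter, 1 without ACM library 19 and 1 to 6 over all the single libraries left out. Osteoclast markers had 1 lower at a filter of FPKM 5.

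None of the 102 named differences changed sign. With no filter 4 were no longer called (Ms4a4c, Ch25h, mt-Nd4l, Alox5), under quantile normalization Fcer1g, in the fit of 12 WT libraries mt-Nd4l, in the fit of all 24 libraries Trem2 and mt-Nd4l, with no mean-variance trend Sgpl1, and with voom, which tested 96 of them, mt-Nd4l. No paired analysis was possible because the replicate numbers are unique across the groups. Library totals of 17.7 to 25.02 M reads limit precision for low genes, and p-values cover the spread between libraries, not between animals.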

Other observations

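Gene lists that belong to none of the families above moved little or in both directions. The shares over all genes tested were 21.8% higher and 17.5% lower, and the inflammasome counts below were near them. Of 16 kept NF-kB subunits and feedback genes 5 were lower in ACM than in S1P and 3 higher, none by over 0.50 log2 units, with Nfkbib, an inhibitor of the pathway, at 16.6 FPKM in ACM and 23.9 FPKM in S1P. Immediate early factors were split, 3 higher and 3 lower of 11, with Ier2 higher at 0.36 and the phosphatase Dusp1 lower at -0.53. Of 11 kept inflammasome genes 3 were higher and 2 lower, and Nlrp3, the sensor of the best known inflammasome, averaged 42.4 FPKM in ACM, 31.1 FPKM in S1P and 41.9 FPKM in untreated cells (0.44, limma adjusted p = 0.0025). Of 9 kept fibrogenic factors and matrix ligands 4 were higher and 4 lower, with Tgfbi higher at 0.49 and Pdgfb lower at -0.36. Of 10 sterol sensing and uptake genes 6 were higher and 4 lower, Stard4, a sterol carrier, being higher at 0.61. Of 7 kept CXC chemokines 2, Cxcl10 and Cxcl16, were higher and 1, Cxcl3, was lower at -0.64, with 2.43 FPKM in ACM and 4.37 FPKM in S1P.

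Arginine enzymes differed in sign. Arg1, arginase 1, read 3.91, 3.46, 3.82 and 2.28 FPKM in ACM, 0.990, 0.807, 0.683 and 0.957 FPKM in S1P and 0.912 to 1.80 FPKM in untreated cells, and it passed the filter through the ACM libraries alone, so its difference of 1.22 log2 units is given as a description. Ass1, argininosuccinate synthase, averaged 27.6 FPKM in ACM and 41.8 FPKM in S1P (-0.58, limma adjusted p = 0.0028). The other 5 kept genes of the list of itaconate, arginase and nitric oxide enzymes were not called. Of 14 granulocyte markers 4 were kept, 1 higher, 1 lower and 2 not called. S100a8, a calcium-binding protein of neutrophils, was lower, at 1.91 FPKM in ACM and 2.56 FPKM in S1P (-0.44, limma adjusted p = 0.0135). Mmp8, a neutrophil collagenase, averaged 17.0 FPKM in ACM and 12.4 FPKM in S1P, both below the 68.7 FPKM of untreated cells (ACM minus S1P 0.43, higher in ACM, limma adjusted p = 0.0067). Lyz2, lysozyme, averaged 4496 FPKM in ACM, 3280.0 FPKM in S1P and 5792 FPKM in untreated cells. Arg1 was chosen for mention after its values were seen.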
